A study of Mus musculus with 12 samples.

Results

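Neurexins, neuroligins and leucine-rich repeat transmembrane proteins (LRRTMs) hold the synapse together across its cleft, and the accessible chromatin at their genes was examined in cultured mouse cortical neurons. The 9 genes considered were Nrxn2, Nrxn3, Nlgn1, Nlgn2, Nlgn3, Lrrtm1, Lrrtm2, Lrrtm3 and Lrrtm4. Overlapping peaks of the 12 libraries (1 bp or more in common) were joined into regions, and a merged region was assigned to a gene when it lay in the gene body or within 10 kb upstream of one of its annotated transcription start sites. This gave 363 regions of 263785 in all, at 8 of the 9 genes. Nrxn2 was not analysed here.

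The assay was ATAC-seq, in which a transposase cuts open chromatin and the sequenced fragments pile up at accessible sites. The neurons were wild-type C57BL/6 cells isolated at embryonic day 18, and each of the 4 groups had 3 biological replicates. One group received PBS as vehicle for 7 days and the other 3 received human wild-type α-synuclein preformed fibrils (PFF), which seed aggregation of the neuronal protein, for the same 7 days. PFF+MLi-2 neurons were also given MLi-2, which blocks the kinase activity of LRRK2, for the last 5 days. PFF+Rab5 ASO neurons were given antisense oligonucleotides (ASO) against the early endosome GTPase Rab5 for the last 3 days. No group analysed here had MLi-2 or the ASO without PFF, so the effect of either agent alone cannot be told apart from its effect on PFF-treated neurons. There was also no group with a control oligonucleotide. Lowering of Rab5 therefore cannot be told apart from exposure to an oligonucleotide. All libraries were labelled as batch 1. The cultures came from whole cortical tissue, and the promoters of 6 of 6 neuronal, 6 of 6 cortical excitatory, 5 of 5 GABAergic and 5 of 5 astrocyte marker genes had a peak in all 12 libraries. Among 5 microglial markers, 2 had no promoter peak in any library (Aif1 and Cx3cr1) and 0 had one in all 12. Among 6 oligodendrocyte lineage markers 2 had one in all 12. An open promoter is not a measure of expression, and the part of other cell types in the results was not tested.

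Neurexins are presynaptic receptors. Their genes are long, are spliced into many isoforms and use separate promoters for the long and short protein forms. Neuroligins are their postsynaptic ligands, of which neuroligin 1 is best known at excitatory and neuroligin 2 at inhibitory synapses. LRRTMs are a second family of postsynaptic neurexin ligands, found mainly at excitatory synapses, and several of their genes lie inside genes of α-catenins, which link cadherins to actin.

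The libraries held 137417 to 184717 peaks. Relative depth was the most frequent background value of the peak caller, divided by the smallest peak width of the library. That width was taken as the fragment length, which was not tested. Scaled to a mean of 1, relative depth ran from 0.775 to 1.31. A smaller width raises it, so depth and width are not independent measures. The PFF+Rab5 ASO libraries stood apart from the other 9 in technical measures. Their relative depth was 1.22 ± 0.149 (SD, n = 3) against 0.843 ± 0.0728 in PFF, and their smallest peak was 53 to 59 bp wide against 62 to 66 bp elsewhere. Each result with this group therefore cannot be told apart from these differences. The fragment pileup at the summit of the 2232 member peaks had a median of 15 fragments and ran from 8 to 80, so a call near the lower end rests on few fragments and a missing call means only that no peak was detectable at that depth.

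Most of the accessible regions belonged to the longest genes. Nrxn3 (chr12:88722876-90334935, plus strand) had 205 regions, which was 56.5% of the total, and Nlgn1 (chr3:25426215-26332460, minus strand) had 78. Lrrtm4 (chr6:80018877-80810143, plus strand) had 27 and Lrrtm3 (chr10:63928472-64090277, minus strand) had 21. The short genes had fewer, with 10 at Lrrtm1 (chr6:77242689-77257791, plus strand), 9 at Nlgn3 (chrX:101299168-101325963, plus strand), 7 at Nlgn2 (chr11:69823122-69837784, minus strand) and 6 at Lrrtm2 (chr18:35209003-35215024, minus strand). All positions are in GRCm38.

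Per length of sequence searched the order was different. Lrrtm1 held 39.8 regions per 100 kb, Lrrtm2 37.4, Nlgn2 28.4 and Nlgn3 24.5, against 13.8 over all protein-coding genes. Nrxn3 (12.6) and Lrrtm3 (12.2) were near that value, and Nlgn1 (8.51) and Lrrtm4 (3.37) were below it. Of the members with a region, Lrrtm4 was thus the most sparsely marked although its body spans 791 kb.

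Introns held 307 of the 363 regions (84.6%), while 41 lay within 1 kb of a start site of their own gene, 9 overlapped an exon and 6 lay upstream. A peak was called in all 12 libraries at 68 regions (18.7%, against 27.5% of all regions) and in a single library at 111 (30.6%, against 26.6%). The regions called once were low, with a median summit pileup of 11 fragments against 21 at those called in every library. Of the 322 member regions away from start sites of their own gene, 52 (16.1%) were common to all libraries. The share was 23.4% over regions of all protein-coding genes, but there regions near a start site of any gene were left out. The promoter rule thus differs between these shares.

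Several regions lie in more than one gene. Lrrtm1 sits inside Ctnna2, Lrrtm2 inside Ctnna1 and Lrrtm3 inside Ctnna3, in each case on the opposite strand, and all of their 10, 6 and 21 regions therefore also lie in the α-catenin gene. The Nlgn2 promoter region also overlaps Tmem256, and the 3 upstream Nlgn2 regions lie in Plscr3. The 9 Nlgn3 regions overlap the processed transcript Gm21986. A peak at these positions cannot be assigned to one gene of the pair.

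**Figure D1:**
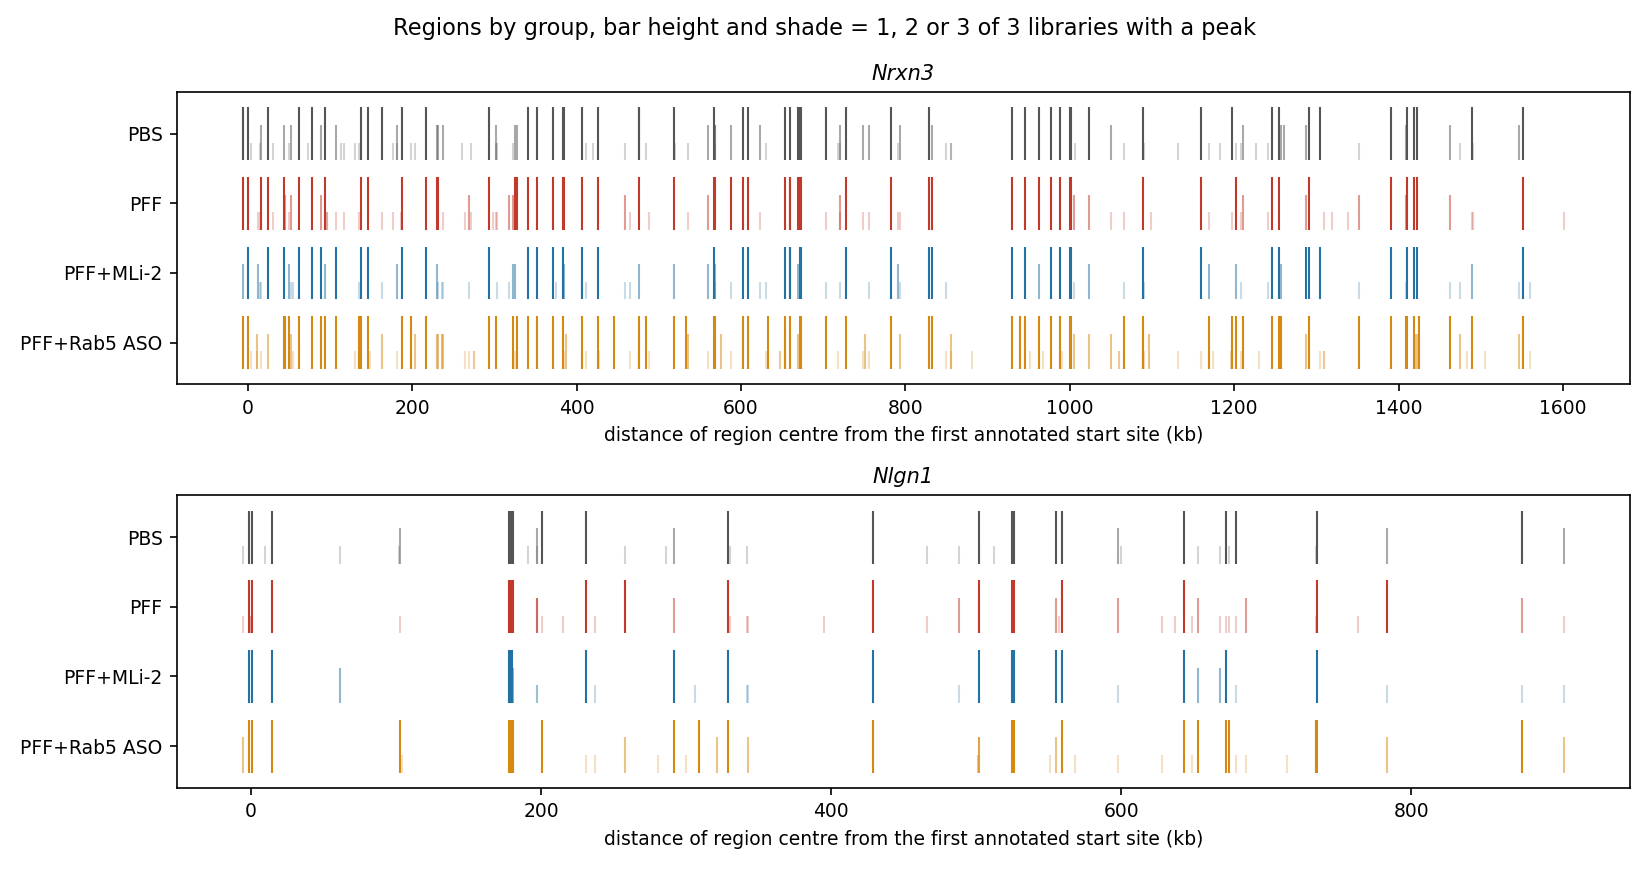
Regions at Nrxn3 (205) and Nlgn1 (78), the members with the most regions, placed by the distance of the region centre from the first annotated start site (kb, x axis), with 1 row per group. Bar height and shade give how many of the 3 libraries of the group had a peak. Tall bars recur at the same distances in all 4 rows at the 38 Nrxn3 and 13 Nlgn1 regions called in every library.

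Of the 41 promoter regions, 16 had a peak in all 12 libraries, among them the main promoter of each of the 8 genes. Peak height is given here as the percentile of a peak's fold enrichment among all peaks of its own library. At the first Nrxn3 start site (chr12:88722660-88723027) the percentile was 95.3 to 96.8 in PBS, 94.3 to 96.8 in PFF, 92.5 to 97.8 under PFF+MLi-2 and 95.6 to 97.9 under PFF+Rab5 ASO. An internal Nrxn3 start site 1089 kb downstream (chr12:89811901-89812624) was nearly as high, at 92.4 to 93.8, 93.1 to 97.0, 92.6 to 94.0 and 90.5 to 95.5 in the same order. The groups overlapped at both start sites. Further internal Nrxn3 starts were weaker, and the region 230 kb from the first start (chr12:88952958-88953267) had a peak in 9 of 12 libraries.

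Among the neuroligins, the highest promoter region of Nlgn3 was not at its first start but at an internal one 14.8 kb downstream (chrX:101313711-101314295). Its percentile averaged 97.1 over the 12 libraries, and that of the region 1.09 kb from the first start (chrX:101300075-101300447), near another start, averaged 86.3. The region at the first start itself (chrX:101299075-101299263) was called in 11 of 12 libraries and averaged 34.0, with the missing call counted as 0. The Nlgn1 promoter (chr3:26331245-26332053) averaged 73.3 and the Nlgn2 promoter (chr11:69837602-69838673) 67.8. The latter was the lowest of the 8 main promoters. It was at 67.0 to 68.6 in PBS, 61.3 to 64.1 in PFF, 63.7 to 73.2 under PFF+MLi-2 and 69.0 to 75 under PFF+Rab5 ASO, so by percentile all 3 PFF libraries lay below every PBS and PFF+Rab5 ASO library. On the score scale used for testing below, the difference between PFF and PBS at this promoter was -0.26 (SE 0.210, limma adjusted p = 0.735) and the groups overlapped. Against PFF it was 0.38 with the Rab5 ASO (SE 0.198, limma adjusted p = 0.310) and 0.40 with MLi-2 (SE 0.194, limma adjusted p = 0.478), without overlap in either case, and neither passed.

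LRRTM promoters ranged widely. Lrrtm4 (chr6:80018701-80019085) averaged percentile 97.6, Lrrtm3 (chr10:64090112-64090427) 93.8, Lrrtm2 (chr18:35214855-35215425) 85.8 and Lrrtm1 (chr6:77242543-77242800) 78.3. At Lrrtm4 the percentile was 95.2, 96.3 and 97.3 in PBS and 98.5, 99.0 and 98.8 in PFF, without overlap. The score difference was 0.51 (SE 0.212) and did not pass the threshold over all regions (limma adjusted p = 0.478). At the other LRRTM promoters the ranges of the groups were close, and 0 of the 8 main promoters passed limma in any of the 5 comparisons tested.

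**Figure D2:**
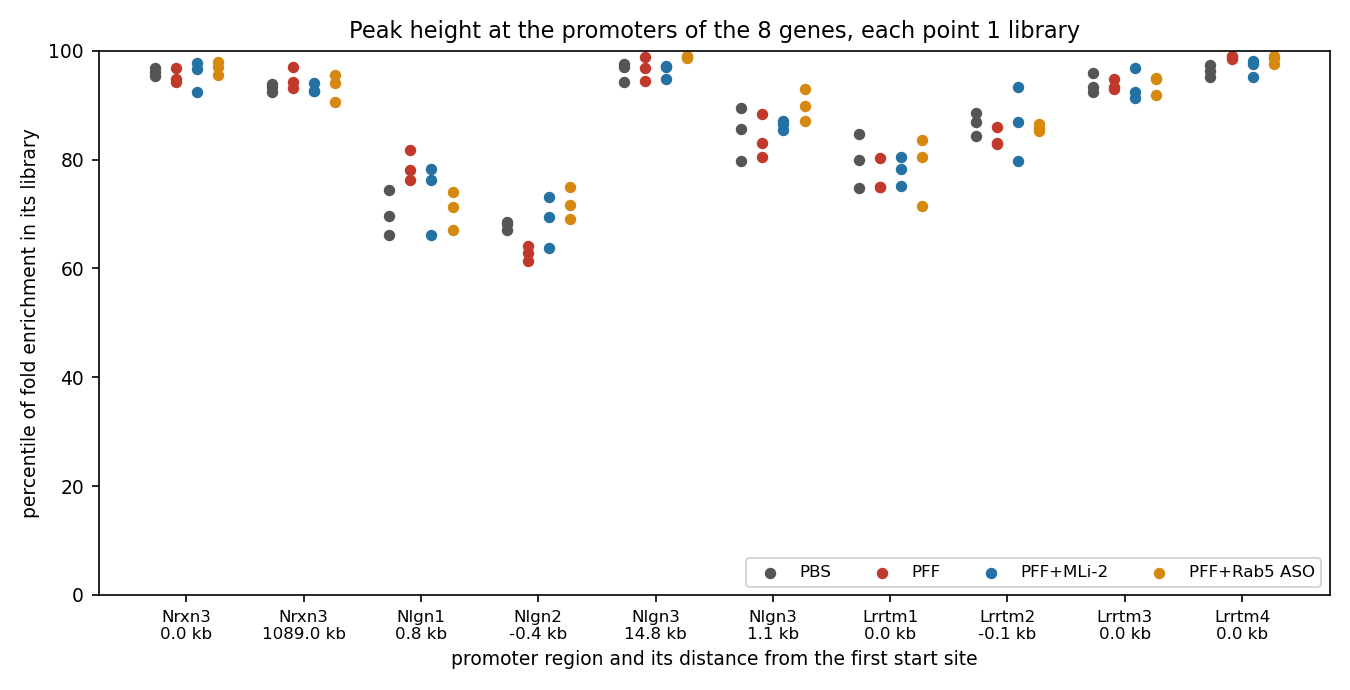
Percentile of fold enrichment within its own library (y axis) at the main promoter region of each gene and at a second start of Nrxn3 and Nlgn3, labelled by distance from the first start site. Each point is 1 library and colours are the 4 groups. The Nrxn3, Nlgn3 14.8 kb, Lrrtm3 and Lrrtm4 promoters lie above percentile 90 in every library, and Nlgn1 and Nlgn2 lie between 61.3 and 81.8.

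The sequences under 5 of these promoter summits are shown because they mark the sites that stayed open in all groups. Each is a window of 75 bases to either side of the highest summit, read from the GRCm38 plus strand. Capitals mark matches, on either strand, to 1 of 5 motifs that were searched: GGGCGG (the GC box), CACGTG (an E-box), TGACGTCA (the cyclic AMP response element), TGANTCA (the AP-1 site) and CAGATG (the E-box type bound by NeuroD factors). None of these motifs contains another, and a match is only a description.
Nrxn3 first start, chr12:88722748-88722898: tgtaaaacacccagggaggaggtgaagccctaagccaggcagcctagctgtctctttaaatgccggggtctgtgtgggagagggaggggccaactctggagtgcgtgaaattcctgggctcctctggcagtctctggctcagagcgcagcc
Nrxn3 internal start, chr12:89812242-89812392: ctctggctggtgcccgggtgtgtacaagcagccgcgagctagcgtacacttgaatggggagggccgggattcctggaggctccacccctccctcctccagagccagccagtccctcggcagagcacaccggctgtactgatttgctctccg
Nlgn3 internal start, chrX:101314039-101314189: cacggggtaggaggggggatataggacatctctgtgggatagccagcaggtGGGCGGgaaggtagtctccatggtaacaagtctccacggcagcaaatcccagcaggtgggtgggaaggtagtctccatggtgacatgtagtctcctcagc
Lrrtm1, chr6:77242594-77242744: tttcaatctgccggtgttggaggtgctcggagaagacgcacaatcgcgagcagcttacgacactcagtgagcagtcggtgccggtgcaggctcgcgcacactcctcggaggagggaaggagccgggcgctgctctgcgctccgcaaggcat
Lrrtm4, chr6:80018869-80019019: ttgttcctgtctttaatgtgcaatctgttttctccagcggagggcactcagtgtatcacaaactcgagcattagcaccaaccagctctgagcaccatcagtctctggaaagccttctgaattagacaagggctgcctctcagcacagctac

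The Lrrtm1 window held 15 CpG dinucleotides in 151 bases and the Lrrtm4 window 2, although Lrrtm4 had the higher peak. The Nlgn3 window was the only 1 of the 5 shown with a match, to the GC box. In windows of 100 bases to either side, a GC box was found in 7 of 41 member promoter regions (17.1%), against 32.9% of all 45098 regions within 1 kb of a start site. Away from start sites of their own gene, CAGATG was in 63 of 322 member regions (19.6%) and TGANTCA in 34 (10.6%). GGGCGG was in 13 (4.04%), CACGTG in 5 (1.55%) and TGACGTCA in 0. Over all other 218464 regions of the genome the shares were 24.0%, 11.8%, 4.69%, 3.10% and 0.233% in the same order. That set also holds regions far from genes, so it is not a matched background.

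Outside promoters, some intronic regions ranked among the highest peaks of their libraries. A region near the 3′ end of Nrxn3 (chr12:90274629-90275141, 1552 kb from the first start) averaged percentile 99.9 and was at 99.7 or above in each of the 12 libraries. In the neuroligins the highest non-promoter region common to all libraries was in an Nlgn1 intron (chr3:26003287-26003648, mean percentile 95.1). For the LRRTMs it was in an Lrrtm3 intron (chr10:64076054-64076293), which averaged 98.5 and was thus above the Lrrtm3 promoter.

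The number of member regions called per library was 202, 132 and 151 in PBS, 173, 168 and 137 in PFF, 134, 138 and 125 under PFF+MLi-2 and 205, 184 and 172 under PFF+Rab5 ASO. The PFF+Rab5 ASO libraries had more than every PFF+MLi-2 library, and PBS replicate 1 was as high as they were. As a share of all regions called in the same library, members made up 0.121% ± 0.00733 in PBS, 0.113% ± 0.00644 in PFF, 0.108% ± 0.00461 under PFF+MLi-2 and 0.131% ± 0.00115 under PFF+Rab5 ASO (SD, n = 3). The PFF+Rab5 ASO libraries (0.130% to 0.132%) lay above all PFF libraries (0.106% to 0.117%), and PBS replicate 1 was at 0.130%. Relative depth averaged 0.939 in PBS and 0.999 with MLi-2, besides the values given above, and its part in these shares was not tested.

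Nrxn3 carried most of this difference. It had 112, 75 and 85 called regions in PBS, 94, 85 and 75 in PFF, 77, 79 and 70 under PFF+MLi-2 and 122, 107 and 105 under PFF+Rab5 ASO, so that every PFF+Rab5 ASO library was above every PFF and PFF+MLi-2 library. Nlgn1 had 43, 24 and 31, then 38, 37 and 26, then 29, 26 and 22, and finally 38, 37 and 33. Of its groups, PFF+Rab5 ASO was clear of PFF+MLi-2 and no other pair was separate. Lrrtm2 had 4 regions in every PFF and 3 in every PFF+MLi-2 library, and Lrrtm3 had 11 to 13 in PFF against 7 to 10 in PFF+MLi-2. Lrrtm4 had 10, 14 and 10 in PFF and 14, 10 and 13 with the Rab5 ASO, above the 6, 9 and 7 with MLi-2. At Nlgn2, Nlgn3 and Lrrtm1 the groups overlapped throughout. Over all regions, 129291 to 147785 were called per PFF library, 131866 to 154769 with the Rab5 ASO and 121668 to 123588 with MLi-2. The MLi-2 libraries were thus below both other groups genome-wide, so their lower counts at these genes are not particular to them. PFF and PFF+Rab5 ASO overlapped genome-wide.

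**Figure D3:**
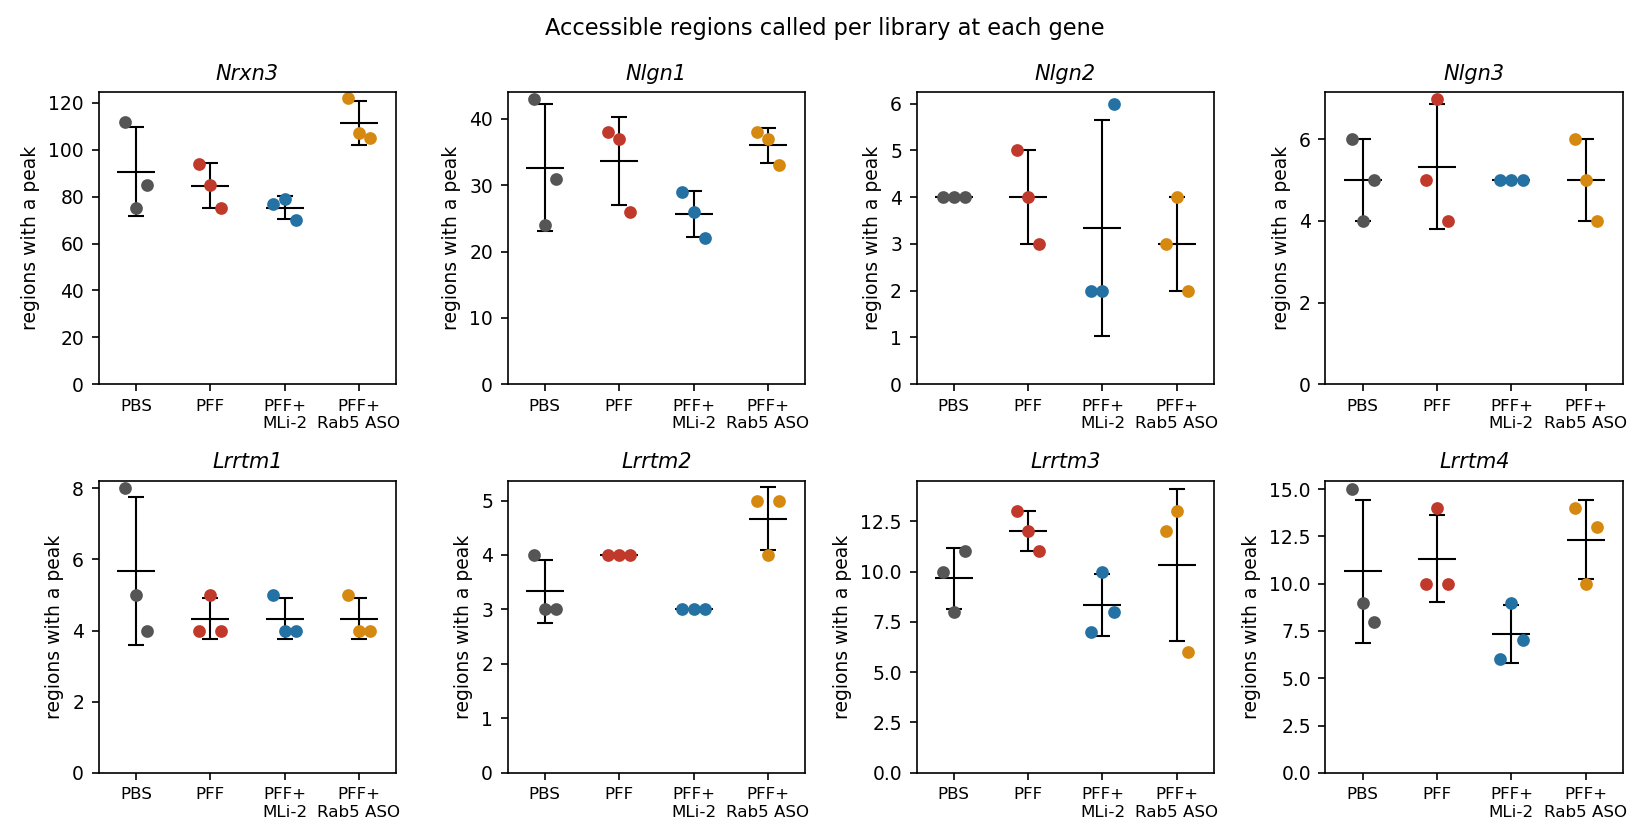
Number of regions with a peak (y axis, starting at 0) in each library at the 8 genes, by group. Points are libraries, and bars are the mean and SD of 3. At Nrxn3 the PFF+Rab5 ASO libraries (105 to 122) lie above the PFF libraries (75 to 94), while PBS replicate 1 (112) lies among them.

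The first comparison asked what PFF changed. Against PBS, PFF neurons gained 2 member regions and lost 2, all in introns of Nrxn3 and Lrrtm3, among 285 members called at least once in the 6 libraries compared. A gained region had a peak in all 3 PFF libraries and in 0 PBS libraries, and a lost region the reverse. The later comparisons use the same rule. The gains were 0.702% of the members against 1.10% of all 216981 regions, and the losses 0.702% against 0.405%, so both counts are small. An exact test of a single region in 3 against 3 libraries cannot go below p = 0.1.

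The gained Nrxn3 region (chr12:89382924-89383072, 660 kb from the first start) was at percentile 61.3, 42.0 and 63.5 in the PFF libraries. It was also called in 2 PFF+Rab5 ASO and 3 PFF+MLi-2 libraries. The gained Lrrtm3 region (chr10:64039780-64039933, also in Ctnna3) was at 61.3, 42.0 and 33.6 in PFF and was called in 2 PFF+MLi-2 libraries and 1 PFF+Rab5 ASO library.

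The lost regions were both in Nrxn3. The region 1304 kb from the first start (chr12:90027106-90027363) was at percentile 69.2, 56.2 and 7.62 in PBS, had no call in PFF, was at 60.3, 70.3 and 49.8 in PFF+MLi-2 and had a call in 1 PFF+Rab5 ASO library. It was therefore also the 1 member region gained in PFF+MLi-2 vs PFF. The region 476 kb from the first start (chr12:89198923-89199092) was at 39.7, 17.9 and 17.7 in PBS and was called in 2 PFF+Rab5 ASO and 0 PFF+MLi-2 libraries. The summit pileups at the 4 were 9 to 17 fragments in the groups where all 3 libraries called them in this comparison.

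The sequences of these 4 regions are given because they are the only member regions whose calls separated PFF from PBS, with the same motifs in capitals.
Nrxn3 gained, chr12:89382927-89383077: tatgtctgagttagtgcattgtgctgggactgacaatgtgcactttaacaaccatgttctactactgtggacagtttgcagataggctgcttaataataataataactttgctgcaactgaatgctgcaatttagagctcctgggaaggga
Lrrtm3 gained, chr10:64039747-64039897: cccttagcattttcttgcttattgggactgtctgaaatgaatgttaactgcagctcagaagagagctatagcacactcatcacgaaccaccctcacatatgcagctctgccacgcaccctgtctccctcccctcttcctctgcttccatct
Nrxn3 lost, chr12:90027086-90027236: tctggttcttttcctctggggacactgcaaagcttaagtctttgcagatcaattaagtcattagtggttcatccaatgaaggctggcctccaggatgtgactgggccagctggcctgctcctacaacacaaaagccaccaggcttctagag
Nrxn3 lost, chr12:89198878-89199028: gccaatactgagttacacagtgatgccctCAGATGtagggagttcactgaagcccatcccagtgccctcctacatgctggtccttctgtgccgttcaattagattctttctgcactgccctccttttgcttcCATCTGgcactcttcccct
Only the last holds a match, to CAGATG on each strand.

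The number of gained and lost members changed when single libraries were left out. Gained regions went from 2 to 8 of 277 without PFF replicate 3 (2.58% of all regions), to 5 of 251 without PBS replicate 1 (3.01%) and to 4 of 269 without PFF replicate 2 (2.0%). Lost regions went from 2 to 7 of 277 without PBS replicate 2 (1.61%), to 5 of 267 without PFF replicate 1 (1.03%), to 5 of 269 without PFF replicate 2 (0.785%) and to 4 of 277 without PFF replicate 3 (0.6%). Over all regions both shares were higher in each of these settings than with all 6 libraries.

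Peak height did not separate PFF from PBS beyond the threshold at any of the 68 member regions common to all libraries. For this comparison the fold enrichments of the 72465 regions called in all 12 libraries were ranked within each library and turned into normal scores, so an effect is a difference in SD of that score. By limma, 0 members and 0% of all regions passed an adjusted p of 0.05, while 9 members were higher and 3 lower at an unadjusted p under 0.05 (3839 and 3205 of all regions). The groups did not overlap at 13 of the 68 members (19.1%), against 15.1% of all regions. The median effect over the members was 0.0674 and over all regions -0.0203.

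The largest positive score effects of PFF were at 2 Nrxn3 introns and 1 Lrrtm4 intron. The Nrxn3 region 407 kb from the first start (chr12:89129582-89129877) was at percentile 72.9, 56.2 and 78.5 in PBS and 89.6, 93.7 and 91.0 in PFF, without overlap, and its effect was 1.13 (SE 0.248, limma adjusted p = 0.232). The Lrrtm4 region (chr6:80079267-80079563) had an effect of 0.99 (SE 0.324, limma adjusted p = 0.365), and the Nrxn3 region at chr12:89395076-89395465 one of 0.90 (limma adjusted p = 0.410). The largest negative effects were in Lrrtm3 (chr10:64084518-64084689, -0.91, limma adjusted p = 0.464), an Nlgn1 intron (chr3:26317482-26317754, -0.90, limma adjusted p = 0.546) and an internal Nlgn1 promoter (chr3:26153916-26154104, -0.68, limma adjusted p = 0.456). Single libraries weighed on the first 2: the Lrrtm3 effect was -0.45 without PFF replicate 3, and the Nlgn1 intron had -0.42 without PBS replicate 1 and -1.38 without PBS replicate 3.

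The scores were also averaged over the common regions of each gene. At least 3 such regions were required, which 6 members met (Nrxn3 with 38, Nlgn1 with 13, Lrrtm4 with 4 and the other LRRTMs with 3 each). Lrrtm4 had a mean score of -0.12, -0.17 and -0.10 in PBS, 0.32, 0.47 and 0.68 in PFF, 0.02, 0.08 and 0.33 under PFF+MLi-2 and 0.25, 0.27 and 0.27 under PFF+Rab5 ASO. All PFF libraries were above all PBS libraries. The PFF effect was 0.62 (SE 0.115) and did not pass over the 6896 genes tested (limma adjusted p = 0.110, and 0% of genes passed). It passed when all 12 libraries entered 1 fit (limma adjusted p = 0.0470), and in the other alternatives the limma adjusted p ran from 0.105 to 0.444 with an effect of 0.52 to 0.70.

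Nlgn1 had an effect of the opposite sign. Its mean score was -0.17, -0.04 and -0.17 in PBS and -0.32, -0.27 and -0.44 in PFF, without overlap (effect -0.22, SE 0.106, limma adjusted p = 0.494). Nrxn3 (0.13, SE 0.104, limma adjusted p = 0.681), Lrrtm1 (-0.13), Lrrtm2 (-0.15) and Lrrtm3 (-0.19) overlapped between PFF and PBS. At an unadjusted p under 0.05, 1 member gene was higher and 0 were lower, against 236 and 494 of all 6896 genes.

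**Figure D4:**
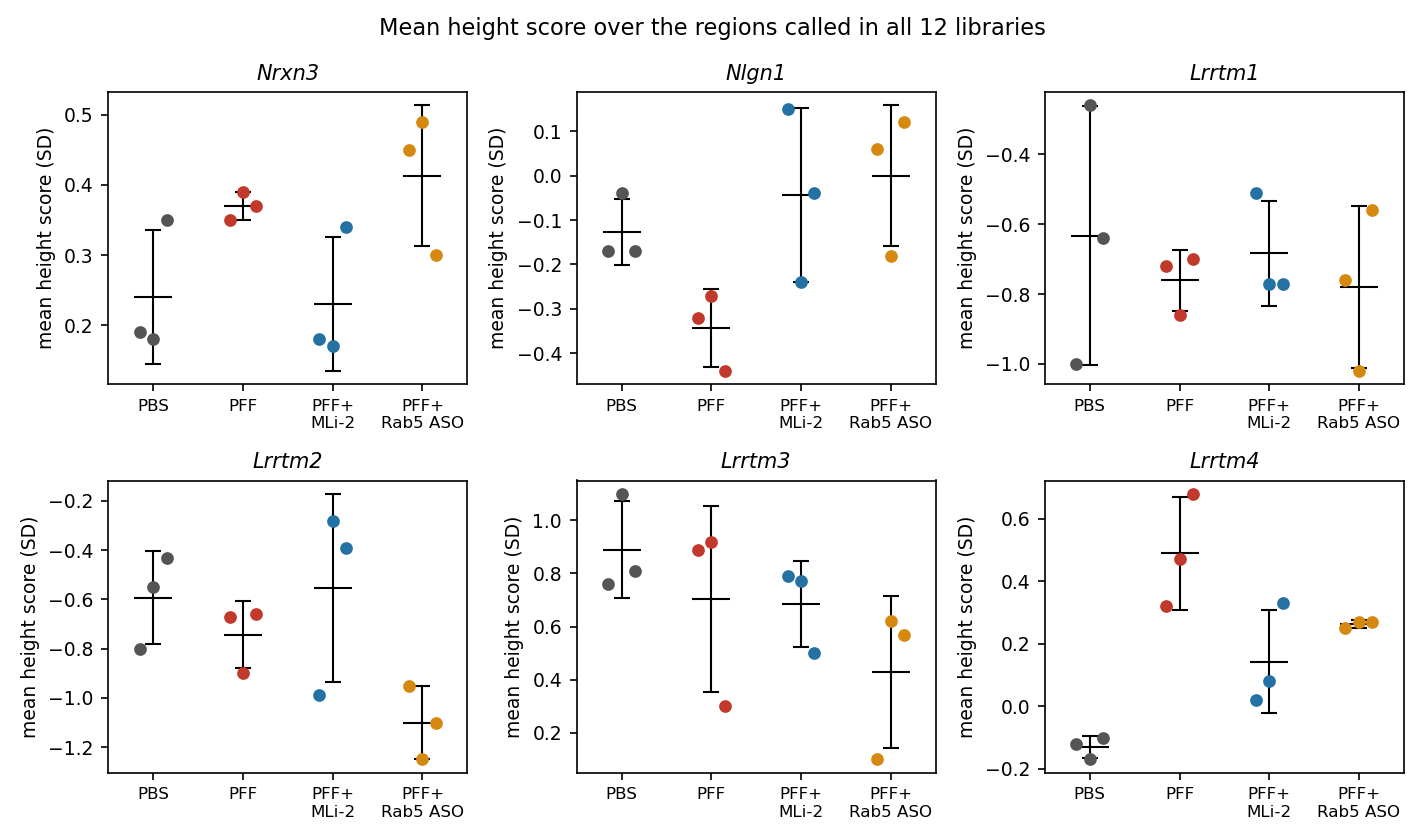
Mean height score (y axis, SD of the normal score) over the regions called in all 12 libraries, for the 6 genes with at least 3 such regions. Points are libraries, and bars are the mean and SD of 3. The y axes differ between genes and do not start at 0. At Lrrtm4 the PBS libraries (-0.17 to -0.10) lie below all others, and at Nlgn1 the PFF libraries (-0.44 to -0.27) lie below all others.

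The second comparison asked what the LRRK2 inhibitor changed in PFF-treated neurons. PFF+MLi-2 neurons gained 1 member region against PFF (0.395%, against 0.374% of all 205235 regions) and lost 4 (1.58%, against 1.64%), of 253 with a peak. The share of members was thus close to that of all regions in both directions. The gained region was the Nrxn3 intron 1304 kb from the first start described above.

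The 4 lost regions lay in 4 different genes. The Nrxn3 region (chr12:89049363-89049585, 327 kb from the first start) was the highest, at percentile 66, 62.1 and 58.0 in PFF. It was called in 2 PBS libraries, in all 3 with PFF+Rab5 ASO and in 0 with PFF+MLi-2. The Lrrtm3 region (chr10:64009685-64009894) averaged 46.1 ± 22.2 (SD, n = 3) in PFF and the Nlgn1 region (chr3:26074632-26074909) 35.0 ± 12.1. The fourth, in the Lrrtm2 promoter, was lower. The Nrxn3 sequence is shown as the highest of the 4.
Nrxn3 lost with MLi-2, chr12:89049392-89049542: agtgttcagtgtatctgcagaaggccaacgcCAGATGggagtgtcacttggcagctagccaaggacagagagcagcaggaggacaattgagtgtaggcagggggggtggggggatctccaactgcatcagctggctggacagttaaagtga
It holds 1 match to CAGATG. Lost members went from 4 to 10 of 244 without PFF replicate 3 (3.72% of all regions), to 7 of 249 without PFF+MLi-2 replicate 3 (2.83%) and to 2 of 222 when an equal number of top peaks was taken from each list (1.07%). Gained members went from 1 to 3 without PFF+MLi-2 replicate 2 (0.838% of all regions) or without PFF replicate 1 (0.977%) and to 2 without PFF+MLi-2 replicate 3 (0.973%).

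The lost Lrrtm2 region lay 875 bp downstream of a start site (chr18:35214044-35214223) and averaged only 10.8 ± 4.39 (SD, n = 3) in PFF. It was called in 1 PBS library and in all 3 PFF+Rab5 ASO libraries.

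By height, 0 of the 68 members and 0% of all regions passed limma in PFF+MLi-2 vs PFF, with 2 members higher and 5 lower at an unadjusted p under 0.05 (4068 and 4221 of all regions). The groups did not overlap at 10 members (14.7%, against 17.7%). The internal Nlgn1 promoter 180 kb from the first start (chr3:26152704-26152979) had the largest positive effect. It was at percentile 25.1, 36.6 and 14.8 in PFF and 70.5, 59.2 and 63.6 in PFF+MLi-2, without overlap, and its score effect was 1.34 (SE 0.218, limma adjusted p = 0.172). Its neighbour (chr3:26153064-26153309) had 0.94 (limma adjusted p = 0.375) and the Lrrtm3 region at chr10:64084518-64084689 had 0.80 (limma adjusted p = 0.480). Without PFF replicate 2 the former was 0.62, and without PFF replicate 3 the latter was 0.34.

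The largest negative effect was in an Nrxn3 intron 930 kb from the first start (chr12:89653104-89653593), at percentile 88.0, 84.8 and 75.7 in PFF and 54.6, 39.6 and 41.5 in PFF+MLi-2 (-1.34, SE 0.228, limma adjusted p = 0.184). A second Nrxn3 intron (chr12:89668919-89669215) had -0.98 (limma adjusted p = 0.279). The high Lrrtm3 intron named above (chr10:64076054-64076293) had -0.93 (SE 0.239, limma adjusted p = 0.251), with percentiles of 99.6, 99.9 and 99.5 in PFF and 97.9, 97.6 and 96.4 in PFF+MLi-2. Over genes, 0 of 6 members passed (0% of all genes), and 1 was higher and 1 lower at an unadjusted p under 0.05 (619 and 345 of all genes). The members were Nlgn1 (0.30, SE 0.117, limma adjusted p = 0.289) and Lrrtm4 (-0.34, SE 0.124, limma adjusted p = 0.248). Both comparisons contain the same PFF libraries, so their effects are not independent.

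PFF+MLi-2 was also set against PBS by height. By limma 0 of the 68 members and 0% of all regions passed, with 1 member higher and 3 lower at an unadjusted p under 0.05 (2044 and 2135 of all regions). The groups did not overlap at 9 members (13.2%, against 10.3%). The largest positive effects were at the internal Nlgn1 promoter (chr3:26152704-26152979, 0.91, SE 0.241, limma adjusted p = 0.815) and at 2 Nrxn3 introns (chr12:89451016-89451186, 0.67, and chr12:89395595-89395794, 0.58). The largest negative effects were all in Nrxn3 introns (chr12:89074921-89075187, -0.91, chr12:89093755-89094286, -0.84, and chr12:89653104-89653593, -0.79), with limma adjusted p-values of 0.827 to 0.844. Without PFF+MLi-2 replicate 1, the effect at chr12:89451016-89451186 was 0.42 and that at chr12:89093755-89094286 was -0.50, and the effect at chr12:89395595-89395794 was 0.30 without PFF+MLi-2 replicate 2 and 0.90 without PFF+MLi-2 replicate 3. Over genes 0 of 6 members and 0% of all genes passed, and 1 member was higher and 0 lower at an unadjusted p under 0.05 (132 and 187 of all genes).

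The third comparison asked what the Rab5 ASO changed in PFF-treated neurons. PFF+Rab5 ASO neurons gained 12 member regions against PFF and lost 0, of 322 with a peak. The gains were 3.73% of the members against 2.64% of all 230866 regions, and the losses 0% against 1.94%. All 12 lay in introns, 8 in Nrxn3, 2 in Nlgn1, 1 in Lrrtm3 and 1 in Lrrtm4. Away from all promoters, 11 of 281 members were gained (3.91%, against 2.53% of the non-promoter regions in protein-coding genes) and 0 were lost (against 2.35%).

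At 9 of the 12 gained regions a peak was called in the 3 PFF+Rab5 ASO libraries and in no other library. The highest was in Nrxn3, 446 kb from the first start (chr12:89168751-89168902), at percentile 69.7, 66.1 and 50.4. The next was in Lrrtm3 (chr10:63938271-63938494, also in Ctnna3) at 65.6, 39.3 and 57.6, and the third again in Nrxn3 (chr12:89255391-89255521), which averaged 53.1 ± 29.3 (SD, n = 3). The 2 Nlgn1 regions (chr3:26023004-26023114 and chr3:25598426-25598534) averaged 36.6 ± 4.83 and 33.6 ± 12.6, and the Lrrtm4 region (chr6:80529468-80529600) 32.4 ± 14.1. The other 3 regions, all in Nrxn3, had a call in 1 or 2 PBS libraries as well, and 1 of them (chr12:89979317-89979493) also in 2 PFF+MLi-2 libraries. The gained regions had widths of 75 to 224 bp and summit pileups of 10 to 20 fragments (median 13.0) in the PFF+Rab5 ASO libraries, the group with the greatest relative depth and the shortest peaks. The part of depth and fragment length in these calls was not tested.

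The absence of losses did not hold with another way of taking peaks. With an equal number of top peaks from each list (137417), 8 members were gained and 6 lost, of 258 (2.5% and 2.44% of all regions), and when a peak had to cover 25% of the region 4 of 322 were lost (2.37%). Gained members went from 12 to 21 of 301 without PFF+Rab5 ASO replicate 2 (4.25% of all regions) and to 19 of 308 without PFF replicate 2 (3.70%). Lost members went from 0 to 9 of 296 without PFF+Rab5 ASO replicate 1 (3.45%), to 4 of 314 without PFF replicate 3 (3.73%), to 3 of 308 without PFF replicate 2 (3.15%) and to 1 without PFF+Rab5 ASO replicate 2 (2.85%) or PFF replicate 1 (3.10%). The sequences of the 2 highest gained regions are shown because their calls were limited to the PFF+Rab5 ASO libraries among the 12.
Nrxn3 gained with Rab5 ASO, chr12:89168729-89168879: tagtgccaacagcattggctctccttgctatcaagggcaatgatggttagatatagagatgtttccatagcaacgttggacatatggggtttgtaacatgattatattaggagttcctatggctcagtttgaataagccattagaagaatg
Lrrtm3 gained with Rab5 ASO, chr10:63938275-63938425: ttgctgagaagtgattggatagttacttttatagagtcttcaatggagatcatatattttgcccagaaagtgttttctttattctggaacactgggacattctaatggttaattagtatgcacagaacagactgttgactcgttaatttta
Neither holds any of the 5 motifs.

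By height, PFF+Rab5 ASO vs PFF was the comparison with member regions past the threshold. Of the 68 members, 3 were higher and 1 lower by limma, against 1.97% higher and 1.86% lower over all 72465 regions. At an unadjusted p under 0.05, 9 members were higher and 5 lower (7613 and 7708 of all regions). The groups did not overlap at 17 members (25%, against 25.9%), so the members as a list were near the background. The median effect was 0.0267 over the members and 0.00987 over all regions.

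The regions that rose were 2 Nrxn3 introns and 1 Nlgn1 intron. The Nlgn1 region, 526 kb from the first start (chr3:25806702-25807045), was at percentile 62.5, 47.0 and 47.8 in PBS, 30.0, 44.3 and 38.1 in PFF, 60.3, 16.8 and 41.5 under PFF+MLi-2 and 71.9, 71.3 and 60.1 under PFF+Rab5 ASO. It rose by 1.02 against PFF (SE 0.210, limma adjusted p = 0.0348). The Nrxn3 region 426 kb from the first start (chr12:89148940-89149387) was at 29.3, 29.9 and 71.9 in PBS, 40.4, 56.6 and 58.0 in PFF, 54.6, 28.7 and 56.6 under PFF+MLi-2 and 90.7, 70.3 and 91.1 under PFF+Rab5 ASO. It rose by 1.40 (SE 0.325, limma adjusted p = 0.0463), the largest positive effect among the members.

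The third was the Nrxn3 region 1291 kb from the first start (chr12:90014032-90014247), at percentile 48.8, 62.1 and 58.0 in PFF and 79.3, 82.3 and 75.9 in PFF+Rab5 ASO (0.93, SE 0.217, limma adjusted p = 0.0473). In PBS it spread from 17.9 to 71.0 and in PFF+MLi-2 from 7.12 to 56.6. The region that fell was in an Nrxn3 intron 988 kb from the first start (chr12:89710479-89710899). It was at 85.6, 87.0 and 78.5 in PBS, 92.3, 88.4 and 91.0 in PFF, 69.3, 84.6 and 85.5 under PFF+MLi-2 and 73.3, 55.4 and 79.0 under PFF+Rab5 ASO (-1.12, SE 0.261, limma adjusted p = 0.0465).

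These 4 calls were close to the threshold. All 4 were kept when quantile-normalised log2 fold enrichment replaced the ranks (limma adjusted p = 0.0344 to 0.0409), and 1 passed in each of 4 other fits: with the replicate number as a block, with the rank of the -log10 p-value, over regions in all 6 libraries and with all 12 libraries in 1 fit. When a library was left out, 1 of the 4 passed without PFF+Rab5 ASO replicate 2 (the Nrxn3 region 426 kb from the first start, limma adjusted p = 0.0413) and 0 of the 4 passed without any of the other 5. Without PFF replicate 2, 2 members outside the 4 passed instead, the Lrrtm2 promoter region named below and an Nrxn3 intron (chr12:88868315-88868667). Their direction was kept in every one of these fits. The sequences of the 4 regions are shown because they are the only member regions that passed this test.
Nlgn1 higher, chr3:25806773-25806923: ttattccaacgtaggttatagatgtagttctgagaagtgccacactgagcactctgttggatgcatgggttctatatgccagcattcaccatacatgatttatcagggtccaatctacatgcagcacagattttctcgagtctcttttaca
Nrxn3 higher, chr12:89149057-89149207: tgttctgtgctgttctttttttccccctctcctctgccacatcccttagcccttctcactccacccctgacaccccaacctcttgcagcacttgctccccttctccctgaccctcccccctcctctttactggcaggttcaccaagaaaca
Nrxn3 higher, chr12:90014029-90014179: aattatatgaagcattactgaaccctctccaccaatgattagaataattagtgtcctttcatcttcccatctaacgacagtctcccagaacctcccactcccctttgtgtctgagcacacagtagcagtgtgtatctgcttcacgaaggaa
Nrxn3 lower, chr12:89710700-89710850: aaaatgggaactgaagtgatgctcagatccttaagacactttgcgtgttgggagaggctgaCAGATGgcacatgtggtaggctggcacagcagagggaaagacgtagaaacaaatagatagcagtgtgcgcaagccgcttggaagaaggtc
The region that fell holds a match to CAGATG and the 3 that rose hold none of the 5 motifs. The Nrxn3 window with the largest rise has 0 CpG dinucleotides.

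**Figure D5:**
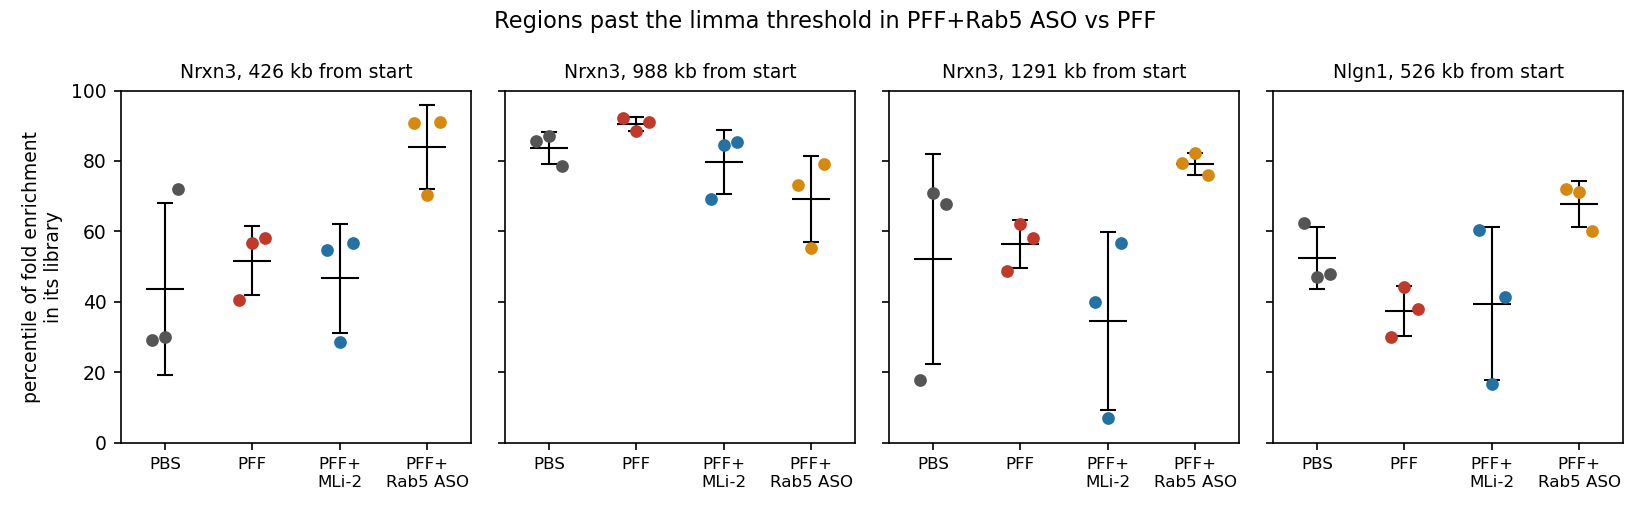
Percentile of fold enrichment within its own library (y axis) at the 4 regions past the limma threshold in PFF+Rab5 ASO vs PFF, by group, with the distance from the first start site in each title. Points are libraries, and bars are the mean and SD of 3. In each panel the 3 PFF+Rab5 ASO libraries lie apart from the 3 PFF libraries, and the PBS libraries spread from 17.9 to 71.0 at the Nrxn3 region 1291 kb from the first start.

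The effects of 1.15 at an Nlgn1 intron (chr3:26317482-26317754, limma adjusted p = 0.0848), -1.08 at an Lrrtm4 intron (chr6:80079267-80079563, limma adjusted p = 0.0602) and -0.89 at an Lrrtm2 promoter region (chr18:35214555-35214718, limma adjusted p = 0.160) did not pass.

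Over genes, 0 of the 6 members passed in PFF+Rab5 ASO vs PFF, against 2.83% of all 6896 genes, with 1 higher and 1 lower at an unadjusted p under 0.05 (856 and 670 of all genes). Nlgn1 had a mean score of -0.32, -0.27 and -0.44 in PFF and 0.06, -0.18 and 0.12 in PFF+Rab5 ASO, without overlap (0.34, SE 0.110, limma adjusted p = 0.105). Lrrtm2 was at -0.67, -0.90 and -0.66 in PFF and -0.95, -1.25 and -1.10 in PFF+Rab5 ASO, also without overlap (-0.36, SE 0.113, limma adjusted p = 0.103). Ranks of the -log10 p-value brought both past the threshold (limma adjusted p = 0.0475 for Nlgn1 and 0.0170 for Lrrtm2), and the other alternatives ran from 0.0634 to 0.271 for Nlgn1 and from 0.0993 to 0.239 for Lrrtm2. Nrxn3, with 38 regions, had an effect of 0.05 (SE 0.0988, limma adjusted p = 0.822).

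Against PBS, 0 of the 68 members passed in PFF+Rab5 ASO by limma, where 1.00% of all regions were higher and 0.631% lower, and 11 members were higher and 6 lower at an unadjusted p under 0.05 (6950 and 6577 of all regions). The groups did not overlap at 19 members (27.9%, against 23.0%). The largest positive effects were all in Nrxn3 introns, at chr12:89148940-89149387 (1.52, SE 0.422, limma adjusted p = 0.0895), chr12:89063612-89064097 (1.06, limma adjusted p = 0.129) and chr12:88868315-88868667 (1.01, limma adjusted p = 0.0713). The largest negative effects were in Lrrtm3 (chr10:64084518-64084689, -0.89, limma adjusted p = 0.156, and -0.53 without PFF+Rab5 ASO replicate 1), Nrxn3 (chr12:88910828-88911102, -0.82, limma adjusted p = 0.116) and the Lrrtm2 exon at chr18:35210653-35210841 (-0.75, limma adjusted p = 0.151). Over genes, 0 of 6 members passed against 0.841% of all genes, with 1 higher and 2 lower at an unadjusted p under 0.05 (471 and 619 of all genes).

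The genes that act with the members at the cleft were examined in the same way. Of 46 such partners (secreted neurexin ligands such as neurexophilins, other postsynaptic binders, neuroligin regulators and scaffolds, receptor phosphatases with their ligands, and other synaptic adhesion genes), 33 had at least 3 common regions. By limma 0 of 33 passed in any of the 5 comparisons. In PFF vs PBS the 2 largest effects of each sign were in Slitrk3 (-0.39, SE 0.129, limma adjusted p = 0.356), Slitrk5 (-0.36), Lrrc4b (0.14) and Lrrc4 (0.11), which encode postsynaptic leucine-rich repeat proteins that bind presynaptic partners. At an unadjusted p under 0.05, 0 partners were higher and 1 lower, against 236 and 494 of all 6896 genes.

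In PFF+Rab5 ASO vs PFF, 5 partners were higher and 0 lower at an unadjusted p under 0.05, where 856 and 670 of all 6896 genes were. The 2 largest of each sign were in Nxph1, a secreted neurexin ligand (0.43, SE 0.132, limma adjusted p = 0.0915), and Slitrk5 (0.40, SE 0.124, limma adjusted p = 0.0953), and on the negative side in Cask, a neurexin-binding scaffold (-0.23, limma adjusted p = 0.276), and Ptprd, a receptor phosphatase (-0.14, limma adjusted p = 0.429). In PFF+MLi-2 vs PFF, 3 partners were higher and 1 lower at an unadjusted p under 0.05 (619 and 345 of all genes), and there Slitrk5 had an effect of 0.40 (SE 0.103, limma adjusted p = 0.186) and Slitrk3 one of 0.38 (SE 0.121, limma adjusted p = 0.213). The partner that was lower there was Adgrl1 (-0.33, SE 0.116, limma adjusted p = 0.244). Both comparisons share the PFF libraries. In PFF+Rab5 ASO vs PFF the median effect was 0.0933 over the 33 partners, -0.123 over the 6 members and 0.0263 over all genes.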

How the data were processed

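Chromatin accessibility was measured by ATAC-seq in 12 libraries, 3 for each of 4 groups, taken from titles and treatment labels. For the libraries with MLi-2 or ASO, titles and treatment labels name PFF but the description field names PBS, and titles were followed. According to the methods and the submitters' processing notes, reads were trimmed with Trim Galore 0.6.7, aligned to GRCm38 with Bowtie2 2.5.1 and peaks called in each library alone with MACS2 2.2.7.1. MACS2 options, duplicate removal and any shift for the Tn5 offset are not given in the sources used here, and each would change peak number, width and height. For each peak the authors deposited positions, a score (not used further), the -log10 of its p-value and of its q-value, and a ratio, the fold enrichment at the summit against local background.

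From these lists regions were merged, assigned to genes of GENCODE vM21, and compared by calls and by ranks of fold enrichment (normal scores, limma 3.58.1 in R 4.3.3, 6 libraries in each fit without covariates, significance at a Benjamini-Hochberg adjusted p below 0.05 over all regions or genes). P-values measure the spread between these 3 libraries a group. The study's own read-based test could not be applied to peak lists. Summit pileups were recovered from the fold and the p-value, whole for 100% of member peaks within 0.001. On simulated data with 200 of 72465 regions shifted, a shift of 2 recovered 62.0% of them in PFF vs PBS and a shift of 1 recovered 0%. Over genes in the same comparison a shift of 0.5 recovered 29.0% and a shift of 1 recovered 96.0%. A shift of 1 also recovered 0% of regions in PFF+Rab5 ASO vs PFF, where a member effect of 0.93 passed in the real data. The adjusted threshold depends on how many regions differ, so the simulation does not give the smallest effect that could pass. Other steps used Python 3.11.15 with pandas 2.3.3 and scipy 1.17.1.

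The members, gene lists and motifs were chosen with earlier results of these data known. Named regions were those gained or lost with the 3 highest mean percentiles, the 3 largest effects of each sign per comparison, the highest promoter region of each gene and the highest common non-promoter region of each subfamily. Partners were named for the 2 largest effects of each sign in PFF vs PBS and PFF+Rab5 ASO vs PFF. Other Rab5 ASO gains, second promoters, regions past limma and partners in PFF+MLi-2 vs PFF were named after their values were seen. Alternatives were a stricter threshold, equal numbers of top peaks, 25% coverage, 2 of 3 libraries, 2 kb upstream, a replicate block, other ranks, other fits and leaving out each library.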

Additional observations from a re-analysis of the deposited data

How the results depend on the processing

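Counts of gained and lost members changed with how many libraries had to share a call, as did those over all regions. When 2 of 3 libraries against 0 sufficed, gained and lost members were 11 and 8 of 285 in PFF vs PBS (4.32% and 2.47% of all regions), 4 and 13 of 253 for PFF+MLi-2 vs PFF (1.84% and 6.06%), and 32 and 8 of 322 for PFF+Rab5 ASO vs PFF (6.62% and 5.69%). A stricter threshold (-log10 q of at least 3) gave 1 lost member in PFF vs PBS (0.368% of all regions). Equal numbers of top peaks gave 2 lost for PFF+MLi-2 vs PFF (1.07%) and 6 lost for PFF+Rab5 ASO vs PFF (2.44%), and 25% coverage gave 6 lost in the former (1.81%) and 4 in the latter (2.37%). Leaving out 1 library, which by construction needs fewer calls, gave 2 to 8 gained and 2 to 7 lost in PFF vs PBS, 1 to 3 and 5 to 10 for PFF+MLi-2 vs PFF, and 13 to 21 and 0 to 9 for PFF+Rab5 ASO vs PFF. Over all regions the same settings gave 1.5% to 3.01% and 0.6% to 1.61%, then 0.57% to 0.977% and 2.65% to 3.72%, then 3.17% to 4.45% and 2.42% to 3.73%.

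Of the 4 member regions past limma in PFF+Rab5 ASO vs PFF, 1 passed with the replicate number as a block, 1 with ranks of -log10 p, 1 over regions in all 6 libraries, 1 with all 12 libraries in one fit, and at most 1 when a library was left out. Counting members outside the 4 as well, 0 to 2 passed without 1 library. Against PBS the same group had 1 member past the threshold over regions in all 6 libraries and 1 with all 12 libraries in one fit, where the report has 0. Among genes, 1 member passed in PFF vs PBS with all 12 libraries in one fit, and ranks of -log10 p gave 2 for PFF+Rab5 ASO vs PFF and 1 for PFF+Rab5 ASO vs PBS. The cause was not tested.

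The 15 same-number correlations of deviations over regions were all positive but weak (0.00513 to 0.0788). In 4 of the 5 comparisons every library correlated best with its own number, and in PFF vs PBS 1 library did not, which is a hint from the data and not from the design. The methods treat a pregnancy as a replicate and spread its cultures over groups, but do not say that library numbers mark pregnancies, so the numbers were not taken as pairs. The replicate block gave 0 member regions in the other 4 comparisons and 0 member genes in all 5.

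Small gene effects that never passed changed sign. Leaving out 1 library moved PFF vs PBS effects from -0.30 to 0.02 for Lrrtm3 and from -0.31 to 0.06 for Lrrtm1, which was 0.00 with ranks of -log10 p. For PFF+MLi-2 vs PFF it moved Lrrtm3 from -0.22 to 0.10 and Lrrtm1 from -0.01 to 0.12, and ranks of -log10 p gave 0.12 for Lrrtm3, -0.05 for Lrrtm1 and -0.01 for Lrrtm2. For PFF+Rab5 ASO vs PFF it moved Lrrtm1 from -0.13 to 0.10. For PFF+MLi-2 vs PBS it moved Lrrtm1 from -0.23 to 0.14, Nlgn1 from -0.01 to 0.18, Nrxn3 from -0.07 to 0.04 and Lrrtm2 from -0.10 to 0.26. There Nlgn1 had -0.12 without promoter regions and Lrrtm2 had -0.09 with ranks of -log10 p. For PFF+Rab5 ASO vs PBS it moved Lrrtm1 from -0.33 to 0.04. Of the 626 alternative values for named regions and genes, 563 kept direction and side of the threshold. Peaks of 8 to 15 fragments limit what a single call can show.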
